A study of Mus musculus with 42 samples.

Results

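The sterol regulatory element-binding proteins (SREBPs) and the proteins that sense sterols and cut them free were followed at the level of liver RNA in 42 female APOE*3-Leiden mice. The group holds 7 genes out of 54446 in the count table, and it was chosen by name: the transcription factor genes Srebf1 and Srebf2, the escort gene Scap, the retention genes Insig1 and Insig2, and the protease genes Mbtps1 and Mbtps2. All 7 were found and all 7 passed the filter on low counts. The mice carried the human APOE*3-Leiden transgene, and 1 liver library was made per mouse at 32 weeks. The Chow group (n = 10) was kept on a maintenance chow diet. The WTD group (n = 16) was fed a semi-synthetic Western-type diet with 1% cholesterol, 40.5% sucrose and 15% cocoa butter, with a run-in of 3 weeks before the start and with 0.05% sodium cholate added from week 22. The WTD+Atorvastatin group (n = 16) had the same diet mixed with atorvastatin, a statin that inhibits cholesterol synthesis, at 3.0 mg/kg/day and, from week 5, at 4.5 mg/kg/day. The WTD-fed mice were 8 to 14 weeks old when the diet began, and the age of the chow-fed mice is not given in the sources used here. The labels name the chow-fed mice AZ and all WTD-fed mice Gen, so diet and mouse series cannot be told apart.

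SREBP precursors sit in the membrane of the endoplasmic reticulum (ER) bound to SCAP. When ER cholesterol is high, SCAP binds an INSIG protein and the complex is held back. When it is low, COPII vesicles carry the complex to the Golgi, where the site-1 protease (Mbtps1) and then the site-2 protease (Mbtps2) release the part of the SREBP that enters the nucleus. SREBP2 is known mainly for cholesterol synthesis and uptake genes, SREBP1c for fatty acid synthesis in liver. Cleavage is a step of proteins and was not measured here. A gene count also pools the SREBP1a and SREBP1c transcripts of Srebf1.

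Each library had between 15661381 and 36224054 counts on genes. In 9 libraries over 20% of the genes at 1 to 2 CPM (a count scaled to a common library size) in their own group had no count at all. These were 3 Chow, 5 WTD and 1 WTD+Atorvastatin libraries, and the calls that differ without them are given beside the 7 genes and, for the gene lists, after them. The liver label was checked against 8 hepatocyte markers such as albumin, whose summed level was between 56109 and 171410 CPM in every library. In bulk tissue, fewer cells of a type and less RNA per cell cannot be told apart.

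The starts of Srebf2, Scap and Insig1, which moved together between the groups, and of Srebf1, which did not, are shown first. Whether the motifs bear on these courses was not tested. RefSeq gave 12 windows of 300 bases for the 7 genes (build GRCm38.p6, 250 bases before the start of transcription and 50 from it on). Capitals mark 4 motifs searched on both strands: the sterol regulatory element TCACNCCA, the E-box CACGTG, the CCAAT box CCAAT and the GC box GGGCGG. None of these motifs overlapped another in the windows printed. Srebf2 starts on the plus strand, in the window chr15:82147019-82147318. Insig1 starts on the plus strand, in chr5:28071162-28071461. Scap has 2 starts on the plus strand, and the one farther upstream is shown, in chr9:110333038-110333337. Of the 3 starts of Srebf1 on the minus strand, the one farthest downstream is shown, in chr11:60210422-60210721.
Srebf2: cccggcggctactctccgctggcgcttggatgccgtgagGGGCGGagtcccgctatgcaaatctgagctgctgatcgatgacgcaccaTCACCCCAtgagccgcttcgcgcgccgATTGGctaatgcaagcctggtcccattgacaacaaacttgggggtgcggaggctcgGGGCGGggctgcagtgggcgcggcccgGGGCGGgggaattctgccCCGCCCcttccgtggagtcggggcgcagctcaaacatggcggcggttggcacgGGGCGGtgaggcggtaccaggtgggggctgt
Insig1: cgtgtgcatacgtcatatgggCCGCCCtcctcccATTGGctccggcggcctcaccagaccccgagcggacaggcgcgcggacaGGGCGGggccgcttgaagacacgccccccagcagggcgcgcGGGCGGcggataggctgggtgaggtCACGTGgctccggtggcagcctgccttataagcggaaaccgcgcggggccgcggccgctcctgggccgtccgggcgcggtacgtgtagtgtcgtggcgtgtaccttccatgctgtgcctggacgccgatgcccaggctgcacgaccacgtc
Scap: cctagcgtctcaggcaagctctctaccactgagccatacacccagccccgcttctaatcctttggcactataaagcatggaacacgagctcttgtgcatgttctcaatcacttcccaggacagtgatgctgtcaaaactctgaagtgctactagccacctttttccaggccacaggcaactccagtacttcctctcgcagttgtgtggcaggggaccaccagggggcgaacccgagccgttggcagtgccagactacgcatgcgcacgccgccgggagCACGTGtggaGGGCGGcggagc
Srebf1: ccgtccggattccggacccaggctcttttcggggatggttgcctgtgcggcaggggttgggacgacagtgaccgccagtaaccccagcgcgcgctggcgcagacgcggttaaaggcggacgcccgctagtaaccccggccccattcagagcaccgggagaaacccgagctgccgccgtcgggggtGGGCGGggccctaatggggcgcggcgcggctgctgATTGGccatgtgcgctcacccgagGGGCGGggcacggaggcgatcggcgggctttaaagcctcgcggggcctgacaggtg

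The exact letters of the sterol regulatory element were present in 1 of the 12 windows, that of Srebf2, at position -162 from the start. Of all 32851 promoter windows of the same length, 4.36% held it. The E-box lay in both windows of Scap, which overlap and hold the same copy, and in that of Insig1, and 7.15% of all windows held it. A CCAAT box lay in 5 of the 12 windows and a GC box in 9, and of all windows 37.4% and 35.7% held them. The 12 windows belong to 7 genes. A match is a run of letters and not a measured binding site. Only exact matches were searched, so a window without a mark may still hold a variant of a motif.

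Per exon length, the Insig and Srebf1 transcripts were the most abundant and the proteases the least. Exon length here joins all annotated exons of a gene, from 3.093 kb for Insig1 to 10.539 kb for Mbtps1. It can exceed the length of the transcripts made in liver. The order of the genes and the size of ratios between genes depend on it, whereas comparisons of a gene or ratio between groups do not. In the Chow group the order of the median levels was Insig1 (191 CPM per kb), Insig2 (58.6), Srebf1 (48.0), Scap (24.6), Srebf2 (16.0), Mbtps1 (7.60) and Mbtps2 (1.07 CPM per kb). Insig2 exceeded Srebf1 in only 7 of 10 chow-fed mice, whereas each other neighbour in this order was higher in 10 of 10. In the WTD group the order of medians began with Srebf1 (88.5 CPM per kb), Insig2 (79.2) and Insig1 (62.7), and these could not be ordered reliably: Srebf1 exceeded Insig2 in 12 of 16 mice and Insig2 exceeded Insig1 in 9 of 16. Scap (11.8), Srebf2 (8.67), Mbtps1 (7.27) and Mbtps2 (1.21 CPM per kb) followed, with Srebf2 above Mbtps1 in 13 of 16 mice. In the WTD+Atorvastatin group Insig1 again had the highest median (147 CPM per kb), then Srebf1 (129), Insig2 (65.4), Scap (17.4), Srebf2 (10.9), Mbtps1 (8.00) and Mbtps2 (1.20 CPM per kb). Insig1 exceeded Srebf1 in 11 of 16 of these mice. Mbtps2 shares 2867 exon bases with Yy2 on the same strand, so reads from there cannot be given to either gene by position. On the other strand, Scap shares 985 exon bases with 5830462I19Rik and Srebf1 shares 109 with Rai1, and as the strand setting of the counting is not given in the sources used here, reads there may have been shared too.

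**Figure D1:**
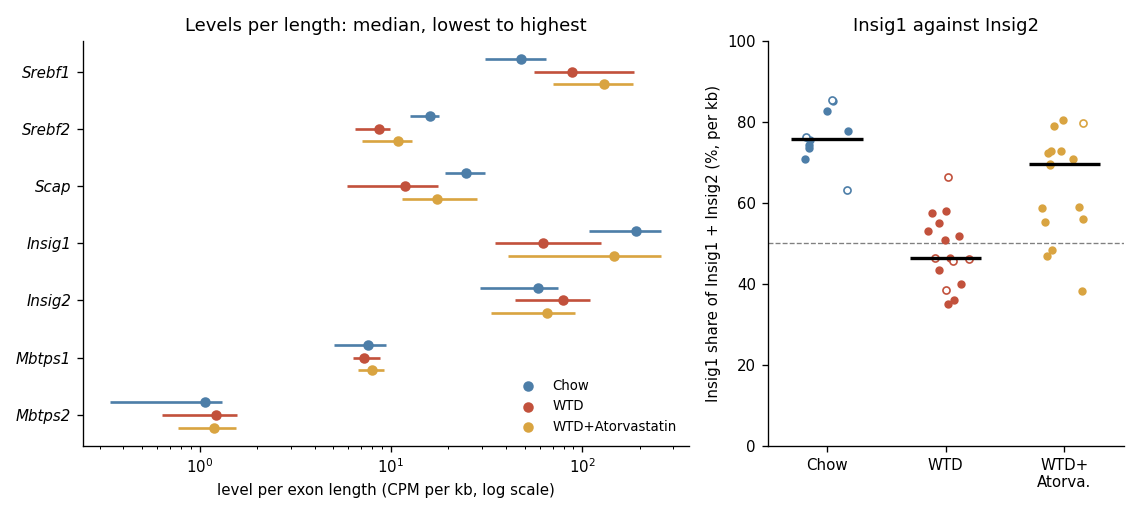
Left, level per exon length (CPM per kb, log scale) of the 7 genes, with the median as a point and the lowest to the highest mouse as a line, in 10 Chow, 16 WTD and 16 WTD+Atorvastatin mice, and right, share of Insig1 in the sum of Insig1 and Insig2 (%, per kb) in each mouse, with the median as a bar and open points for the 9 libraries that missed over 20% of weakly expressed genes. The median share was 75.8% in Chow, 46.4% in WTD and 69.5% in WTD+Atorvastatin mice.

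To compare the groups, all 15574 genes with enough counts were fitted together in edgeR, and genes with a Benjamini-Hochberg adjusted p under 0.01 in its quasi-likelihood test were called. Between WTD and Chow, 4 of the 7 genes were called, when 33.5% of all tested genes were. Srebf1 rose, as did 17.5% of all genes, and Srebf2, Scap and Insig1 fell, as did 16.0% of all genes. Between WTD+Atorvastatin and WTD, 3 of 7 were called, when 7.1% of all genes were: Srebf2, Scap and Insig1 rose (4.84% of all genes rose) and none fell (2.26% of all genes fell). Between WTD+Atorvastatin and Chow, 2 of 7 were called, close to the 25.0% of all genes. Srebf1 was higher (14.2% of all genes were) and Srebf2 was lower (10.7% of all genes were). Without the 9 libraries 5, 2 and 2 of the 7 genes were called in the 3 comparisons, when 37.2%, 10.5% and 29.0% of all tested genes were. The WTD mice serve in the first and second comparison and the Chow mice in the first and the last, so these are not independent of each other. Where groups are said below not to overlap in a gene, the share of all tested genes without overlap was not counted.

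**Figure D2:**
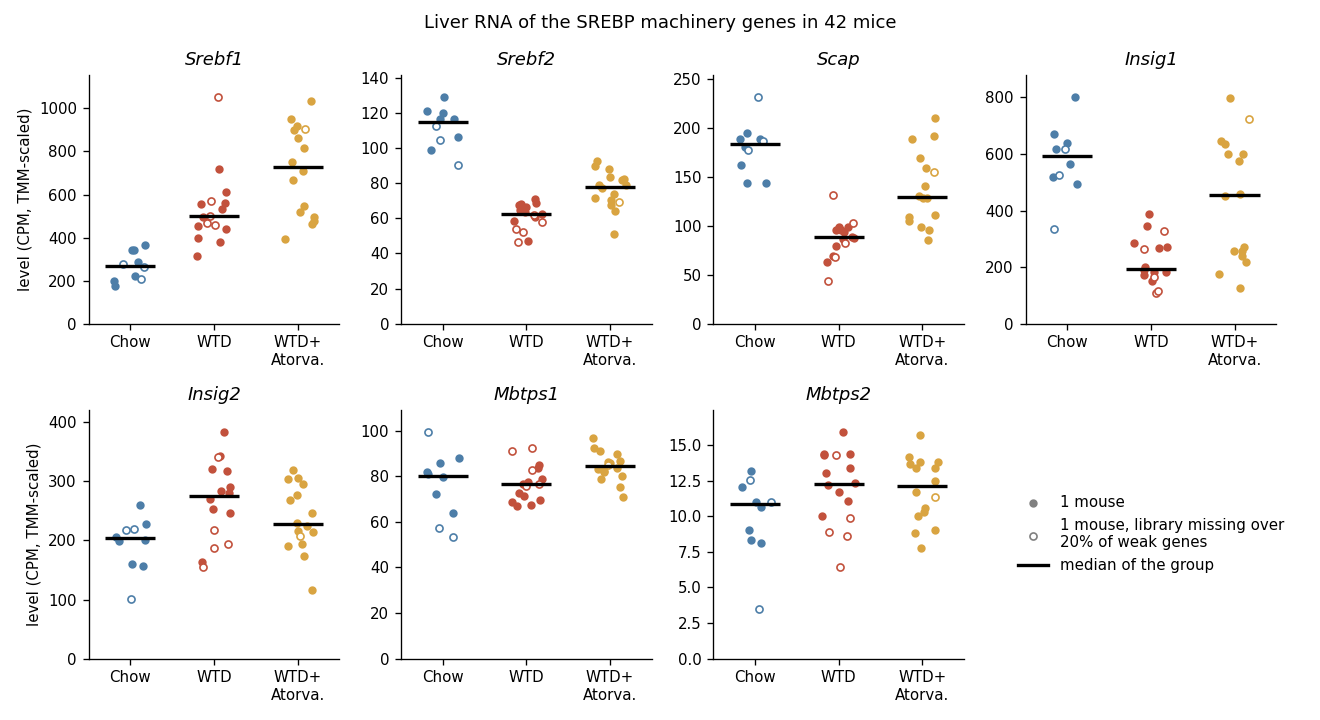
Level (CPM, linear axis from 0) of each of the 7 genes in each of the 42 mice, with the median of each group as a bar and open points for the 9 libraries that missed over 20% of weakly expressed genes. Srebf2 and Scap of the WTD mice lay below those of all Chow mice, and Srebf1 of the WTD+Atorvastatin mice lay above that of all Chow mice. How many of all tested genes separate the groups in this way was not counted.

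Srebf2, which encodes the SREBP of cholesterol synthesis, fell on the diet and rose in part with atorvastatin. Its level was between 90.3 and 129 CPM in Chow mice (median 115), between 46.6 and 71.1 in WTD mice (median 62.3) and between 50.9 and 92.7 in WTD+Atorvastatin mice (median 78.1). No WTD mouse reached the lowest Chow mouse, and 11 of 16 WTD+Atorvastatin mice were above the highest WTD mouse. The log2 fold change between WTD and Chow was -0.88 (SE 0.08, edgeR adjusted p = 7.3e-14), which is 54.4% of the Chow level (95% interval 48.9% to 60.6%). With atorvastatin the log2 fold change against WTD was 0.33 (SE 0.07, edgeR adjusted p = 0.00062), or 126% of the WTD level (114% to 138%). The gene stayed lower than in Chow mice, with a log2 fold change of -0.55 (SE 0.08, edgeR adjusted p = 9.8e-08), and 15 of 16 WTD+Atorvastatin mice were below the lowest Chow mouse. It had the narrowest spread of the genes that moved, with a coefficient of variation of 10.4%, 12.4% and 14.0% in Chow, WTD and WTD+Atorvastatin mice.

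Srebf1 encodes SREBP1a and SREBP1c, and the liver form SREBP1c is known to respond to insulin and to the oxysterol receptor LXR. It was the only member called higher on the diet. Levels were between 176 and 366 CPM in Chow mice (median 270), between 315 and 1051 in WTD mice (median 499) and between 396 and 1035 in WTD+Atorvastatin mice (median 729). The lowest WTD mouse was below the highest Chow mouse, although 15 of 16 WTD mice were above every Chow mouse. WTD+Atorvastatin and Chow mice did not overlap. The log2 fold change was 0.99 between WTD and Chow (SE 0.17, edgeR adjusted p = 3.6e-06), or 198% of the Chow level (157% to 250%). Between WTD+Atorvastatin and Chow it was 1.41 (SE 0.17, edgeR adjusted p = 6.7e-09). Against WTD, the atorvastatin group had a log2 fold change of 0.42 (SE 0.14, 95% interval 0.14 to 0.71), which missed the threshold (edgeR adjusted p = 0.038). The call depended on the WTD mouse Gen20, which held the highest Srebf1 of its group and is among the 9 libraries. Without Gen20 alone the log2 fold change was 0.52 (edgeR adjusted p = 0.0031). Without all 9 libraries it was 0.50 and still missed the threshold (edgeR adjusted p = 0.024). Of 11 other ways of fitting, 1 called it, limma-voom with sample quality weights (0.53, adjusted p = 0.00060).

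Srebf1 and Srebf2 moved apart on the diet, and their ratio changed with it. Per kb, Srebf1 was a median 3.17 times Srebf2 in Chow mice (2.27 to 3.94), 10.4 times in WTD mice (7.32 to 23.2) and 11.6 times in WTD+Atorvastatin mice (6.68 to 18.8). The Chow range did not overlap with that of either other group, while the WTD and WTD+Atorvastatin ranges lay over each other.

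Scap, the cholesterol-binding escort of both SREBPs, followed the same course as Srebf2 with larger steps. Levels were between 143 and 231 CPM in Chow mice (median 183), between 43.8 and 132 in WTD mice (median 88.1) and between 85.5 and 210 in WTD+Atorvastatin mice (median 129). All 16 WTD mice were below the lowest Chow mouse, and 7 of 16 WTD+Atorvastatin mice were above the highest WTD mouse. The log2 fold change was -1.05 between WTD and Chow (SE 0.13, edgeR adjusted p = 2.4e-09), or 48.3% of the Chow level (40.4% to 57.7%). With atorvastatin it was 0.67 against WTD (SE 0.11, edgeR adjusted p = 7.5e-05), or 159% of the WTD level (135% to 187%). Against Chow it was -0.38 (SE 0.13, edgeR adjusted p = 0.017), which did not pass. Leaving out Gen13, Gen26, Gen27 or Gen34 brought that comparison under the threshold, with log2 fold changes of -0.38, -0.42, -0.43 and -0.43 and edgeR adjusted p of 0.0084, 0.0089, 0.0050 and 0.0070. Of 11 other fits 3 called it, namely upper-quartile normalization (-0.41, edgeR adjusted p = 0.0089), a fit of only the 2 groups (-0.41, edgeR adjusted p = 0.0093) and a clock score as a covariate (-0.52, edgeR adjusted p = 0.0026). The highest adjusted p of the 11 was that of limma-voom (-0.27, adjusted p = 0.066).

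Scap stayed close to Srebf2, its cargo, in every group. Per kb, the median ratio of Scap to Srebf2 was 1.50 in Chow mice (1.15 to 1.98), 1.32 in WTD mice (0.907 to 2.21) and 1.70 in WTD+Atorvastatin mice (1.19 to 2.19). These ranges overlapped. The ratio of Scap to Srebf1 did not stay close, with medians of 0.491 in Chow mice (0.389 to 0.836), 0.130 in WTD mice (0.0582 to 0.179) and 0.151 in WTD+Atorvastatin mice (0.103 to 0.313). Of the 2 ratios, only that to Srebf1 separated all Chow mice from the WTD-fed ones.

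Insig1, a sterol-dependent anchor of SCAP that is itself known as an SREBP target, had the highest coefficient of variation of the 7 genes in both WTD-fed groups. Levels were between 334 and 800 CPM in Chow mice (median 592), between 108 and 388 in WTD mice (median 194) and between 127 and 798 in WTD+Atorvastatin mice (median 456). On the diet 14 of 16 mice were below the lowest Chow mouse, while the atorvastatin mice covered nearly the ranges of both other groups. The log2 fold change was -1.36 between WTD and Chow (SE 0.24, edgeR adjusted p = 1.0e-05), or 39.0% of the Chow level (27.9% to 54.6%). With atorvastatin it was 0.96 against WTD (SE 0.22, edgeR adjusted p = 0.0018), or 195% of the WTD level (144% to 264%). This call was lost without the 9 libraries, where the log2 fold change was 0.81 (edgeR adjusted p = 0.017). Against Chow it was -0.40 (95% interval -0.88 to 0.09, edgeR adjusted p = 0.22).

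Mice on atorvastatin differed more in Insig1 than in any other member. The coefficient of variation was 49.5%, against 36.6% in WTD and 21.4% in Chow mice, and the highest mouse had 6.29 times the level of the lowest. Levels left a gap: 7 mice were between 127 and 273 CPM and 9 between 452 and 798. The lower 7 lay within the range of the WTD mice and the upper 9 within that of the Chow mice. The mouse Gen28 was the lowest of its group for 5 of the 7 genes, namely Srebf1, Srebf2, Scap, Insig1 and Insig2, and it also had the lowest mean level of SREBP2 target genes and of lipogenic target genes in its group.

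Insig2, an INSIG that does not depend on SREBP for its expression and is known to be lowered by insulin in liver, went the other way in the medians. Levels were between 102 and 260 CPM in Chow mice (median 203), between 155 and 383 in WTD mice (median 275) and between 116 and 319 in WTD+Atorvastatin mice (median 227). All 3 groups overlapped. The log2 fold change between WTD and Chow was 0.45 (SE 0.15, 95% interval 0.15 to 0.74), just outside the threshold (edgeR adjusted p = 0.011). It was called in 7 of 11 other fits, with log2 fold changes between 0.44 and 0.58 over the 11 and adjusted p between 4.7e-05 and 0.015, and the 7 included DESeq2 (0.49, adjusted p = 0.0024). It also passed when AZ7, Gen10, Gen11, Gen19, Gen20, Gen21 or Gen28 was left out (0.45 to 0.50, edgeR adjusted p 0.0043 to 0.0096). Against WTD, the atorvastatin group had a log2 fold change of -0.17 (95% interval -0.42 to 0.09, edgeR adjusted p = 0.47), and against Chow 0.28 (-0.01 to 0.57, edgeR adjusted p = 0.14).

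The makeup of the INSIG transcripts therefore differed by group. Insig1 made up a median 75.8% of Insig1 and Insig2 per kb in Chow mice (63.1% to 85.3%), 46.4% in WTD mice (35.0% to 66.3%) and 69.5% in WTD+Atorvastatin mice (38.3% to 80.5%). It exceeded Insig2 in 10 of 10, 7 of 16 and 13 of 16 mice. Relative to Scap, the protein it retains, Insig2 was a median 2.38 times as abundant per kb in Chow mice (1.23 to 3.41), 6.92 times in WTD mice (3.03 to 16.7) and 3.71 times in WTD+Atorvastatin mice (1.99 to 6.66). For Insig1 the same ratio had medians of 8.33 in Chow mice (3.48 to 9.90), 5.49 in WTD mice (3.15 to 14.4) and 6.92 in WTD+Atorvastatin mice (3.25 to 11.9), with overlapping ranges.

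For the proteases no difference between groups was called, and the fits with other settings called none. With atorvastatin against WTD, Mbtps1 came near, at 0.16 with limma-voom (adjusted p = 0.012) and 0.18 without the 9 libraries (edgeR adjusted p = 0.020). Between WTD and Chow, Mbtps2 was at 0.32 without the 9 libraries (edgeR adjusted p = 0.045). Mbtps1, the site-1 protease, was between 53.2 and 99.3 CPM in Chow mice (median 80.1), between 67.0 and 92.2 in WTD mice (median 76.6) and between 70.8 and 96.8 in WTD+Atorvastatin mice (median 84.3). Its log2 fold change was 0.02 between WTD and Chow (95% interval -0.13 to 0.17, edgeR adjusted p = 0.86) and 0.13 between WTD+Atorvastatin and WTD (-0.0041 to 0.26, edgeR adjusted p = 0.22). The interval on the diet spans 91.3% to 112% of the Chow level. Mbtps2, the site-2 protease, was between 3.46 and 13.2 CPM in Chow mice (median 10.8), between 6.43 and 15.9 in WTD mice (median 12.3) and between 7.76 and 15.7 in WTD+Atorvastatin mice (median 12.1). Its log2 fold changes were 0.26 (95% interval -0.05 to 0.58, edgeR adjusted p = 0.18) and -0.0043 (-0.28 to 0.27, edgeR adjusted p = 0.99) in the same comparisons. With 54 to 477 counts per library, Mbtps2 had the fewest counts of the 7. Against Chow, the atorvastatin group had log2 fold changes of 0.15 for Mbtps1 (edgeR adjusted p = 0.13) and 0.26 for Mbtps2 (edgeR adjusted p = 0.21).

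**Figure D3:**
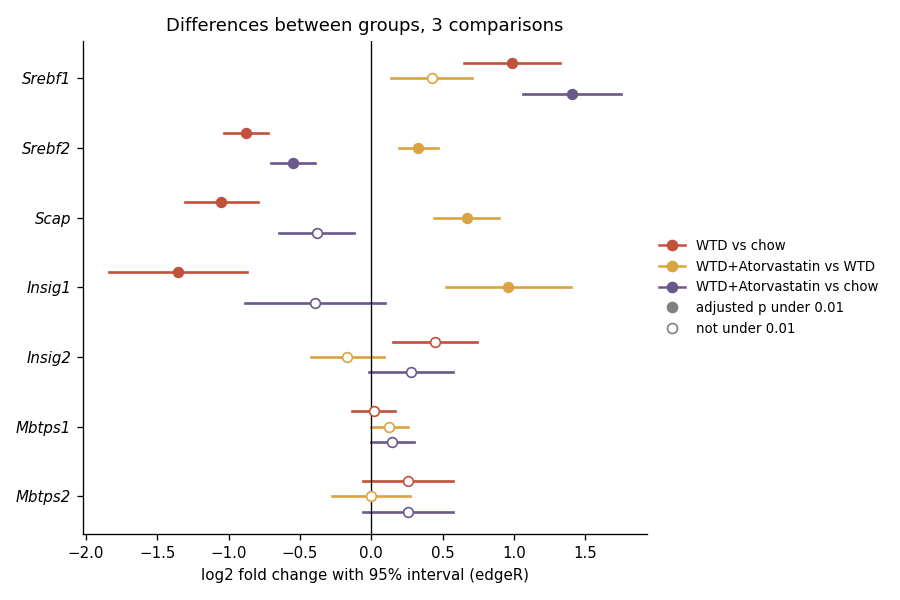
Log2 fold change with its 95% interval (edgeR) of the 7 genes in the 3 comparisons, with filled points for an adjusted p under 0.01. Srebf2, Scap and Insig1 lay at -0.88, -1.05 and -1.36 between WTD and Chow and at 0.33, 0.67 and 0.96 between WTD+Atorvastatin and WTD, while the intervals of Mbtps1 and Mbtps2 crossed 0 in each comparison.

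The genes around the machinery were grouped by role, and the same fit gives their counts, to be read against the shares of all genes above. Between WTD and Chow the median log2 fold change of all tested genes was 0.03, and between WTD+Atorvastatin and WTD it was 0.0016. Of 14 tested genes for retention of the complex and for degradation at the ER, 1 rose and 3 fell on the diet (median -0.04). With atorvastatin 1 rose (median 0.12). Of all genes, 33.5% were called on the diet and 7.1% with atorvastatin. Syvn1, an ER ubiquitin ligase, fell by 1.12 on the diet (SE 0.16, edgeR adjusted p = 1.0e-07). Rnf145, a sterol-responsive ligase that acts on SCAP, was the 1 gene of this list that rose on the diet, by 1.18 (SE 0.10, edgeR adjusted p = 9.5e-15). It remained high with atorvastatin, at 1.14 against Chow (edgeR adjusted p = 6.7e-14), and a difference from WTD was not detected (-0.04, edgeR adjusted p = 0.84). Paqr3, a Golgi anchor of SCAP, and Vcp, a segregase of ER-associated degradation, had values of 0.63 and 0.17 with atorvastatin (edgeR adjusted p = 0.016 and 0.029). Rnf139 had 10 counts in all and was not tested. Against Chow, 2 of the 14 were higher and 2 lower with atorvastatin.

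Among 13 COPII coat genes, whose products form the vesicles that carry SCAP out of the ER, 2 fell on the diet (median 0.02), which is near the 16.0% of all genes that fell, and 2 rose with atorvastatin (median 0.18), when 4.84% of all genes rose. The GTPase gene Sar1b fell by 0.65 (SE 0.09, edgeR adjusted p = 7.3e-08) and the cargo adaptor Sec24a fell by 0.55 (SE 0.10, edgeR adjusted p = 4.3e-06) on the diet, while Sec31b was at -0.57 with an edgeR adjusted p of 0.010, outside the threshold. With atorvastatin, Sec16a rose by 0.34 (SE 0.07, edgeR adjusted p = 0.00086) and the outer coat gene Sec31a rose by 0.27 (SE 0.07, edgeR adjusted p = 0.0031), while Sar1b was at 0.29 (edgeR adjusted p = 0.013). Against Chow, 4 of 13 were higher and 1 lower with atorvastatin, with Sec31a at 0.46 (edgeR adjusted p = 1.7e-06), Sar1b at -0.36 (edgeR adjusted p = 0.0019) and Sec24d at 0.37 (edgeR adjusted p = 0.0024). Without the 9 libraries, 5 of 13 rose with atorvastatin.

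Of 13 genes for nuclear partners and turnover of SREBPs, 2 rose and 2 fell on the diet (median -0.02), when 33.5% of all genes were called. The called genes of the trimeric factor NF-Y differed in direction, with Nfya at 0.76 (SE 0.16, edgeR adjusted p = 7.8e-05), Nfyb at -0.39 (SE 0.10, edgeR adjusted p = 0.0010) and Nfyc at -0.30 (SE 0.09, edgeR adjusted p = 0.0060). With atorvastatin 1 rose (median 0.08), when 4.84% of all genes rose. It was Lpin1, whose product lipin 1 is known to restrain nuclear SREBP, at 0.70 (SE 0.15, edgeR adjusted p = 0.0013). This call was absent without the 9 libraries, when 0 of 13 were called. Nfyb and the co-activator Ep300 had values of 0.28 and 0.18 (edgeR adjusted p = 0.023 and 0.27). Against Chow, 2 of 13 were higher with atorvastatin, Nfya at 0.61 (edgeR adjusted p = 0.0018) and the importin gene Kpnb1 at 0.29 (edgeR adjusted p = 0.00058), and Lpin1 was at 0.56 (edgeR adjusted p = 0.012).

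Among 8 other substrates of the site-1 protease or of both proteases, 2 rose and 1 fell on the diet (median 0.22), when 33.5% of all genes were called. Creb3l3, a liver transcription factor of lipid metabolism, fell by 0.75 (SE 0.11, edgeR adjusted p = 1.2e-07). Creb3l1, known for collagen production, rose by 1.95 (SE 0.30, edgeR adjusted p = 3.1e-07), and Gnptab, needed for lysosomal enzyme sorting, rose by 0.74 (SE 0.15, edgeR adjusted p = 7.3e-05). With atorvastatin 0 of 8 were called in edgeR (median -0.11), when 1 had an unadjusted p under 0.05, limma-voom called 1 and DESeq2 called 0. Creb3l1 was then at -0.52 (edgeR adjusted p = 0.16), Atf6b at -0.17 (edgeR adjusted p = 0.27) and Gnptab at -0.16 (edgeR adjusted p = 0.50). Against Chow the atorvastatin group had 2 higher and 1 lower, the same 3 genes at 1.43 (Creb3l1), 0.58 (Gnptab) and -0.71 (Creb3l3).

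Genes that bring sterol to the ER or store it there went in both directions. On the diet 4 of 12 rose and 2 fell (median 0.22). Soat1, a cholesterol-esterifying enzyme that is high in macrophages, rose by 2.47 (SE 0.19, edgeR adjusted p = 1.1e-15), and the sterol transporter gene Gramd1b rose by 2.53 (SE 0.22, edgeR adjusted p = 7.9e-14), while its relative Gramd1c fell by 1.31 (SE 0.09, edgeR adjusted p = 4.7e-17). With atorvastatin 3 rose and 1 fell (median -0.00025). Gramd1c rose by 0.57 (SE 0.08, edgeR adjusted p = 1.5e-05) and Stard4, an SREBP2-regulated sterol carrier, rose by 0.81 (SE 0.14, edgeR adjusted p = 7.7e-05), while the lysosomal sterol carrier Npc2 fell by 0.35 (SE 0.07, edgeR adjusted p = 0.00022). Against Chow 5 were higher and 2 lower, with Soat1 at 2.25 (edgeR adjusted p = 4.6e-14), Gramd1b at 2.11 (edgeR adjusted p = 2.7e-11) and the lysosomal lipase Lipa at 0.50 (edgeR adjusted p = 6.7e-10).

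The known targets of the SREBPs were counted as a reference for the machinery. All 18 SREBP2 target genes fell on the diet (median -2.06, from -3.40 to -0.69), among them Cyp51 at -2.93 (edgeR adjusted p = 4.8e-22), Hmgcs1 at -2.97 (edgeR adjusted p = 9.0e-20) and Fdft1 at -2.42 (edgeR adjusted p = 1.0e-19), all of cholesterol synthesis. With atorvastatin 14 of 18 rose (median 0.76), led by Sqle at 1.61 (edgeR adjusted p = 1.6e-05) and Nsdhl at 1.08 (edgeR adjusted p = 2.7e-05). Against Chow 15 of 18 were lower (median -1.14), with Cyp51 and Hmgcs1 both at -2.21 (edgeR adjusted p = 1.3e-17 and 1.9e-15) and Fdft1 at -1.76 (edgeR adjusted p = 6.9e-15). The steps of Srebf2 itself, -0.88 and 0.33, were smaller than the medians of this list.

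Of 14 lipogenic target genes, 2 rose and 1 fell on the diet (median 0.42), when 33.5% of all genes were called. These were the desaturase Scd1 at 2.14 (edgeR adjusted p = 7.0e-12), the elongase Elovl5 at 0.53 (edgeR adjusted p = 0.0049) and the desaturase Fads1 at -0.51 (edgeR adjusted p = 0.0013). With atorvastatin 9 of 14 rose (median 1.05), with Gpam at 1.29 (edgeR adjusted p = 0.00015), the malic enzyme Me1 at 1.02 (edgeR adjusted p = 0.00042) and Acly at 1.47 (edgeR adjusted p = 0.00060). Against Chow 11 of 14 were higher (median 1.30), with Scd1 at 2.57 (edgeR adjusted p = 2.0e-13), Acaca at 1.47 (edgeR adjusted p = 1.6e-06) and Pnpla3 at 3.35 (edgeR adjusted p = 3.8e-06). Without the 9 libraries the count with atorvastatin was 6 of 14.

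Both known inputs to Srebf1 were also counted. Of 8 LXR target genes, which respond to oxysterols, 7 rose on the diet (median 1.48), among them Abcg1 at 3.37 (edgeR adjusted p = 4.8e-19), Mylip at 1.54 (edgeR adjusted p = 6.2e-16) and Abcg5 at 1.74 (edgeR adjusted p = 2.9e-14). With atorvastatin 0 of 8 were called in edgeR (median -0.12), when 4 had an unadjusted p under 0.05, limma-voom called 4 and DESeq2 called 1. Abcg1 was at -0.50, Lpcat3 at 0.31 and Abca1 at -0.21 (edgeR adjusted p = 0.011, 0.013 and 0.076). Against Chow all 8 were higher (median 1.38), and Abcg1, Mylip and Abcg5 stood at 2.86, 1.38 and 1.69. Of 9 insulin and feeding genes, 1 rose and 5 fell on the diet (median -0.57). The insulin receptor gene Insr fell by 0.57 (edgeR adjusted p = 2.5e-07) and the gluconeogenic gene Pck1 fell by 0.84 (edgeR adjusted p = 0.00013). With atorvastatin 0 of 9 were called in edgeR (median 0.27), when 4 had an unadjusted p under 0.05, limma-voom called 1 and DESeq2 called 0. Insr and Irs1 had values of 0.24 and 0.33 (edgeR adjusted p = 0.028 and 0.041). Against Chow 1 was higher and 2 lower, with Insr at -0.33 (edgeR adjusted p = 0.0022) and Irs2 at -0.55 (edgeR adjusted p = 0.0081).

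**Figure D4:**
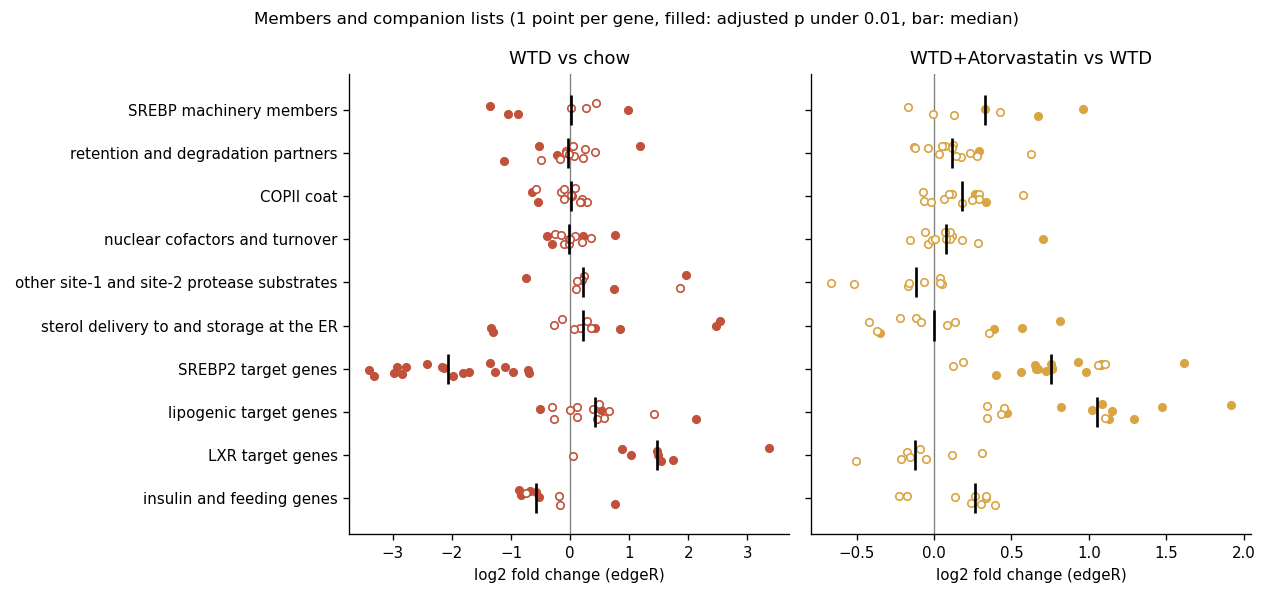
Log2 fold change (edgeR) of each tested gene of the SREBP machinery and of 9 lists around it, between WTD and Chow (left) and between WTD+Atorvastatin and WTD (right), with filled points for an adjusted p under 0.01 and a bar at the median of each list. The SREBP2 targets lay to the left of 0 on the diet (median -2.06) and to the right with atorvastatin (median 0.76), and the axes of the 2 panels differ in range.

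Cell type markers moved with the groups. The summed level of the 8 hepatocyte markers had a median of 134130 CPM in Chow mice (119530 to 171410), 72889 in WTD mice (56109 to 115610) and 113720 in WTD+Atorvastatin mice (65241 to 137810). On the diet 8 of 8 fell (median -0.90, with Ttr at -1.29, Ahsg at -0.90 and Serpinc1 at -0.78), which is close to the log2 fold changes of Srebf2 and Scap. With atorvastatin 5 of 8 rose (median 0.44, with Alb at 0.63, Serpinc1 at 0.41 and Tat at 0.75). The 10 macrophage markers summed to between 299 and 509 CPM in Chow, between 1519 and 2987 in WTD and between 1154 and 2147 in WTD+Atorvastatin mice. Of these 8 rose on the diet (median 2.46, with Lyz2 at 3.47, Csf1r at 1.73 and Cd68 at 2.56), and with atorvastatin 4 fell and 1 rose (Lyz2 at -0.99, Trem2 at -0.97 and Cd68 at -0.56). Of 6 stellate cell markers 4 rose on the diet (Dcn at 0.99, Col3a1 at 2.83, Col1a1 at 3.53). The other 2 had negative log2 fold changes, down to -0.65, and were not called. With atorvastatin 2 fell (Lum at -1.36, Dcn at -0.26). The stellate sums were 311 to 579, 814 to 1957 and 727 to 1848 CPM in the same order of groups. Against Chow, the atorvastatin group had 4 of 8 hepatocyte markers lower, 9 of 10 macrophage markers higher and 4 of 6 stellate cell markers higher. The other 2 stellate cell markers were again negative, down to -0.92, and not called. The part of these cells in the levels of the 7 genes was not tested.

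The other markers were less abundant. The 4 cholangiocyte markers summed to 16.6 to 37.5 CPM in Chow, 28.1 to 103 in WTD and 28.2 to 88.5 in WTD+Atorvastatin mice. All 4 rose on the diet (Epcam at 2.08, Krt19 at 1.91, Sox9 at 1.27) and 0 were called with atorvastatin in edgeR, when all 4 had an unadjusted p under 0.05, limma-voom called 4 and DESeq2 called 0. The 4 endothelial markers summed to 104 to 215, 135 to 223 and 153 to 232 CPM, with Lyve1 at 1.56 and Kdr at -0.44 called on the diet and Kdr at 0.46 called with atorvastatin. Of 8 lymphocyte and neutrophil markers 6 were tested, with sums of 8.28 to 38.3, 10.1 to 31.0 and 11.1 to 18.2 CPM. S100a8 and S100a9 rose on the diet (2.15 and 1.41), and 0 of the 6 were called in the other comparisons in edgeR, DESeq2 or limma-voom, when 1 and 2 had an unadjusted p under 0.05 against WTD and Chow. Ly6g and Mpo had 54 and 192 counts in all and were not tested. Of 15 tested clock genes, 2 rose and 3 fell on the diet (median -0.06), when 33.5% of all genes were called. Nfil3 was at -1.54, Clock at -0.66 and Bhlhe41 at 2.87. With atorvastatin 0 of 15 were called in edgeR (median 0.26), when 4 had an unadjusted p under 0.05, limma-voom called 5 and DESeq2 called 0. Against Chow 3 were higher and 2 lower with atorvastatin. The clock list pools genes that enter the clock score with opposite signs, so its medians do not measure a shift of the clock.

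Without the 9 libraries the counts of several lists changed. On the diet the called genes numbered 3 of 14 for retention and degradation (1 higher, 2 lower), 3 of 13 for COPII (all lower), 2 of 14 for lipogenic targets (1 higher, 1 lower), 5 of 9 for insulin and feeding genes (1 higher, 4 lower) and 4 of 15 for clock genes (1 higher, 3 lower). They also numbered 3 of 4 for endothelial markers (2 higher, 1 lower) and 1 of 6 for lymphocyte and neutrophil markers. With atorvastatin, 2 of 14 retention genes and 6 of 8 hepatocyte markers were then higher, and 4 of 12 sterol delivery genes were higher and 2 lower. In the same comparison 1 protease substrate, 1 LXR target and 1 cholangiocyte marker were lower, and 1 insulin and feeding gene and 1 clock gene were higher. Against Chow, 4 of 13 nuclear genes were higher and 2 lower, 3 of 8 protease substrates were higher and 1 lower, and 10 of 14 lipogenic targets and 7 of 8 LXR targets were higher. Also against Chow, 5 of 8 hepatocyte markers were lower, 4 of 6 stellate cell markers were higher and 1 lower, and 4 of 4 cholangiocyte markers were higher.

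Next, the relation of each gene to the SREBP targets was followed from mouse to mouse inside each group, as the groups themselves differ in level. The mean log2 CPM of the 18 SREBP2 targets and of the 14 lipogenic targets, neither of which holds any of the 7 genes, was set against each gene in each group, which gives 42 relations. P values came from 100000 permutations and were adjusted over the 42. The share of all tested genes that relate to these lists was not counted, so the counts below cannot be called particular to the 7 genes. Both means were taken in the same mice and can move together, so the 2 relations of a gene are not independent. In WTD+Atorvastatin mice (n = 16), 8 relations passed an adjusted p of 0.05, all positive and all of Srebf1, Srebf2, Scap or Insig1. In WTD mice (n = 16) 6 passed, and in Chow mice (n = 10) 0 did by Pearson's r, whereas 4 did by Spearman's rho. Without the 9 libraries 8, 4 and 1 passed, and without the 2 mice farthest from the median level of each gene 5, 2 and 1 passed, in WTD+Atorvastatin, WTD and Chow mice.

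In WTD+Atorvastatin mice Insig1, which is itself known as an SREBP target, had the highest r of the 7 genes with both target lists. With the SREBP2 targets in WTD+Atorvastatin mice, Pearson's r was 0.91 (adjusted permutation p = 0.00042, rho 0.89, adjusted permutation p = 0.00084), and it was 0.86 without the 2 mice farthest from the median. With the lipogenic targets r was 0.90 (adjusted permutation p = 0.00042, rho 0.86, adjusted permutation p = 0.00084), and 0.86 without those 2 mice. In WTD mice the same relations had r of 0.71 (rho 0.66, adjusted permutation p = 0.0097 and 0.027) and of 0.81 (rho 0.77, adjusted permutation p = 0.0014 and 0.0059), and of 0.65 and 0.69 without 2 mice (adjusted permutation p = 0.055 and 0.039). Since Insig1 left a gap in the atorvastatin group, r was also taken on each side of it. It was 0.86 and 0.81 in the 7 lower mice and 0.40 and 0.59 in the 9 upper mice, for SREBP2 and lipogenic targets respectively, as a description.

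For Srebf1 and Scap the relations held for both lists in the atorvastatin group. Srebf1 had r of 0.79 with the SREBP2 targets (rho 0.75, adjusted permutation p = 0.0014 and 0.0085) and 0.85 with the lipogenic targets (rho 0.78, adjusted permutation p = 0.00052 and 0.0055), and 0.82 and 0.86 without 2 mice. In WTD mice its r was 0.65 (rho 0.66, adjusted permutation p = 0.017 and 0.027) and 0.76 (rho 0.66, adjusted permutation p = 0.0033 and 0.027). Without 2 mice these were 0.55 and 0.66 (adjusted permutation p = 0.12 and 0.052), which no longer pass, and without the 9 libraries they were 0.80 and 0.83 (adjusted permutation p = 0.017 and 0.0093). Scap had r of 0.82 with the SREBP2 targets (rho 0.80, adjusted permutation p = 0.00052 and 0.0037) and 0.74 with the lipogenic targets (rho 0.73, adjusted permutation p = 0.0051 and 0.011), and 0.77 and 0.65 without 2 mice (adjusted permutation p = 0.019 and 0.056). In WTD mice Scap had r of 0.70 with the SREBP2 targets (rho 0.82, adjusted permutation p = 0.0084 and 0.0031), and 0.71 without 2 mice.

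For Srebf2 the relations in the atorvastatin group depended on which mice were left out. There r was 0.70 with the SREBP2 targets (rho 0.54, adjusted permutation p = 0.012 and 0.070) and 0.62 with the lipogenic targets (rho 0.47, adjusted permutation p = 0.030 and 0.12). Without the 2 mice farthest from the median Srebf2 level, r dropped to 0.28 and 0.17 (adjusted permutation p = 0.51 and 0.75). Without the 9 libraries, which leaves 15 of these mice, r was 0.78 and 0.70 (adjusted permutation p = 0.0065 and 0.017). In WTD mice r with the SREBP2 targets was 0.64 (rho 0.62, adjusted permutation p = 0.026 and 0.036), and 0.54 without 2 mice (adjusted permutation p = 0.12). Without the 9 libraries r in WTD mice was 0.66 (adjusted permutation p = 0.067). In Chow mice r with the SREBP2 targets was 0.70 (rho 0.84, adjusted permutation p = 0.055 and 0.017), and 0.70 without 2 mice. With the lipogenic targets in Chow mice r was 0.65 (rho 0.76, adjusted permutation p = 0.080 and 0.038), and 0.87 without 2 mice (adjusted permutation p = 0.039). In the 7 Chow mice kept without the 9 libraries, r was 0.90 with the SREBP2 targets and 0.73 with the lipogenic targets (adjusted permutation p = 0.026 and 0.12). None of the relations of Insig2, Mbtps1 and Mbtps2 passed in any group. The lowest adjusted permutation p among these was 0.077, for Mbtps2 with the SREBP2 targets in WTD+Atorvastatin mice (r = -0.52, rho -0.53).

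**Figure D5:**
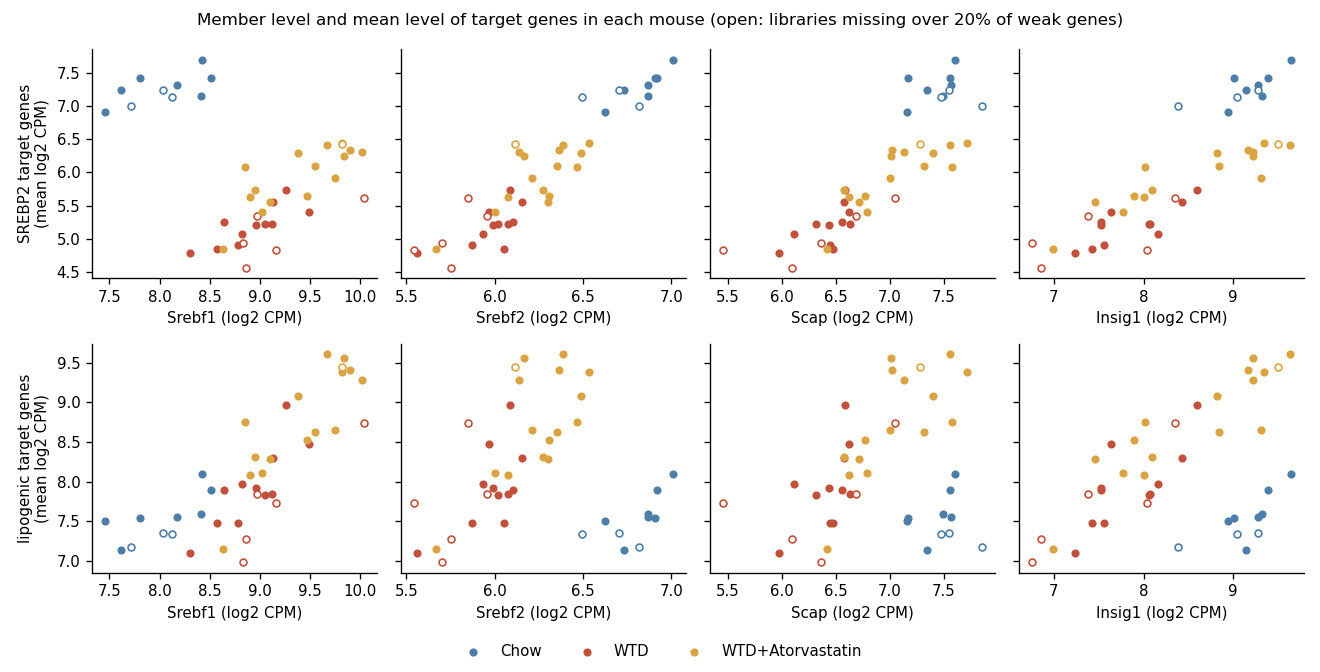
Mean log2 CPM of 18 SREBP2 targets (top) and of 14 lipogenic targets (bottom) against the log2 CPM of Srebf1, Srebf2, Scap and Insig1, with 1 point per mouse and open points for the 9 libraries that missed over 20% of weakly expressed genes. In WTD+Atorvastatin mice the points of Insig1 rise with both lists (r = 0.91 and 0.90), and all Chow mice lie above the WTD-fed mice in the SREBP2 targets.

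Between the 7 genes themselves few pairs ran together within a group. Of 63 relations (21 pairs in 3 groups), 2 passed an adjusted p of 0.05, both in WTD+Atorvastatin mice. These were Srebf1 with Insig1 (r = 0.89, adjusted permutation p = 0.0013, rho 0.76, adjusted permutation p = 0.060) and Srebf2 with Scap (r = 0.72, adjusted permutation p = 0.036, rho 0.71, adjusted permutation p = 0.060). Without the 2 mice farthest from the median, r was 0.85 for Srebf1 with Insig1 (adjusted permutation p = 0.016) and 0.62 for Srebf2 with Scap (adjusted permutation p = 0.20). Without the 9 libraries they were 0.88 and 0.76 (adjusted permutation p = 0.0031 and 0.020). On the sides of the gap in Insig1, its r with Srebf1 was 0.40 in the 7 lower and 0.51 in the 9 upper mice. The paralogues Insig1 and Insig2 had r of -0.18, 0.44 and 0.23 in Chow, WTD and WTD+Atorvastatin mice.

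Lastly, the genes whose levels were most like each member were taken from 10787 tested genes with a mean of at least 5 CPM, by Pearson's r over 42 mice after centring each group. For Insig1 these were Acsl3, Sc5d, Coq8a, Pxdc1 and Dlat (r from 0.89 to 0.84), and for Srebf1 Sardh, Aldh8a1, Apol7a, Thrsp and Car3 (0.84 to 0.80). Scap was most like Tfr2, Acpp, Furin, 1810008I18Rik and Slc23a1 (0.82 to 0.80). Srebf2 was most like Hmgcs1, Acacb, Cyp51, Furin and Lrp5 (0.70 to 0.67), so Furin stands in both lists. Insig2 was most like Loxl4, Caprin1, Clpx, Dhrs9 and Avpr1a (0.77 to 0.71). For these 5 members r stayed between 0.67 and 0.93 in the 33 mice without the 9 libraries. Mbtps1 was most like Aff1, Habp4, Bach2os, Crbn and Med13l (0.74 to 0.65), and Mbtps2 like Leprot, Slc35g1, Tbc1d9, Rragd and Pcnx4 (0.73 to 0.66). For these last 10 genes r was only 0.28 to 0.57 in the 33 mice, so their likeness to the proteases was weaker without the 9 libraries.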

How the data were processed

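Liver RNA of 42 mice was sequenced by the authors with a strand-specific kit, 1 library per mouse. Reads were trimmed with Trimmomatic, aligned with STAR 2.5 to GRCm38 and counted per gene with HTSeq 0.6.1p1 by the authors, and the deposited values are raw counts, of which 15661381 to 36224054 per library fell on genes. The strand setting of the counting is not given in the sources used here. Rows for reads without a feature (2.28% on average), ambiguous reads (5.96%) and reads aligned to several places (4.68%) were left out. Each of the 42 tables of single libraries was identical to its column in the merged table. Of 54446 gene IDs, 54409 matched GENCODE vM21.

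Counts were analysed in R 4.3.3 with edgeR 4.0.16 (TMM, at least 10 counts by filterByExpr, quasi-likelihood test with robust estimation, all 42 mice in 1 fit), with Benjamini-Hochberg adjustment over 15574 genes and a threshold of 0.01, as the study used. The script was tested on simulated data. The 7 genes and 16 lists of genes around them were chosen with earlier results of these data known. Named were all 7 genes, the 3 genes with the smallest p of each list in each comparison, and for each member the 5 most alike genes, and some genes that this rule names are not reported here. Within-group correlations used log2 CPM (prior count 2) and 100000 permutations (smallest p 1e-05, two-sided) in numpy 2.4.6 and pandas 2.3.3. Alternatives were DESeq2 1.42.0, limma-voom 3.58.1 with quality weights, 2 other normalizations, 2 other filters, no robust estimation, only the 2 groups compared, no libraries missing over 20% of weakly expressed genes, that share or a circadian clock score as a covariate, a threshold of 0.05, and leaving out each mouse. P values measure the spread between mice, which were housed in groups.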

Additional observations from a re-analysis of the deposited data

Results flagged for a closer look

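In the Chow group, the only 1 small enough for a test of a single value far from the rest, Mbtps2 in the Chow mouse AZ6 stood apart at 3.46 CPM (54 counts). The next lowest Chow mouse had 8.11 CPM, and this gap was 0.478 of the range of the group, against a critical value of 0.466 for 10 samples. AZ6 is among the 9 libraries that missed over 20% of weakly expressed genes. All 7 genes were looked at in this way, and chance alone marks about 1 in 20 groups. Without AZ6, Mbtps2 was still not called between WTD and Chow (log2 fold change 0.16, edgeR adjusted p = 0.38).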

How the results depend on the processing

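In 11 other fits and with each of 42 mice left out, Srebf1, Srebf2, Scap and Insig1 kept their direction and their call between WTD and Chow, as did Srebf2 and Scap between WTD+Atorvastatin and WTD and Srebf1 and Srebf2 between WTD+Atorvastatin and Chow. The number of members called was 4 to 5, 3 to 4 and 2 to 3 over the mice left out, in the order of these comparisons. With a clock score as a covariate it was 4 in place of 2 between WTD+Atorvastatin and Chow, since Scap (-0.52, edgeR adjusted p = 0.0026) and Insig2 (0.54, edgeR adjusted p = 0.00044) were added. The sign of Mbtps1 between WTD and Chow turned to -0.052 with limma-voom, -0.086 without the 9 libraries and -0.016 with the clock score, and ran from -0.029 to 0.068 over the mice left out. That of Mbtps2 between WTD+Atorvastatin and WTD turned to 0.0028 with no filter and 0.033 with the clock score, and ran from -0.048 to 0.028 over the mice left out. Neither gene was called in any of these fits, and the cause was not tested.

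Member pairs that passed numbered 1 in Chow mice without the 9 libraries, 1 in WTD mice without the 2 mice farthest from the median, and 0 by Spearman's rho and 1 without those 2 in WTD+Atorvastatin mice. Relations with the target genes that passed numbered 4 by Spearman's rho, 1 without the 9 libraries and 1 without 2 mice in Chow mice, 2 without 2 mice in WTD mice and 5 without 2 mice in WTD+Atorvastatin mice. Fewer mice enter the last of these settings. No paired analysis was possible because the replicate numbers name different mice and no label pairs mice across groups. Mbtps2, with 54 to 477 counts per library, is the member with the fewest counts.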
